A study of Sorghum bicolor with 4 samples.

Results

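The table of gene expression in the middle internode of sweet sorghum lists most annotated genes on a row of their own, but 1262 of its 34458 rows carry 2 or more gene IDs, joined by commas. These merged rows, chosen by the comma alone and without regard to any expression value, are described here by how many IDs they hold, whether the IDs follow each other, how high they stood and how they differed between stages. The samples were total RNA from stems of the sweet sorghum (Sorghum bicolor) variety SSV84, grown in an open field without any treatment or genetic change named in the labels. Of the libraries in the labels, 2 are from booting, 1 is from the milky stage (milky) and 1 is from physiological maturity. The table gives 1 FPKM value (fragments scaled for transcript length and for mapped fragments) per row and stage, made by the authors, so no value below has an SD, none has a replicate check and no p-value is given. The sources used here do not say how many plants or libraries entered each stage value.

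The internode is the stem segment between leaf nodes. In sweet sorghum it elongates before flowering, thickens its cell walls and, as the grain fills, stores sucrose in its parenchyma. Transcript assembly guided by an annotation groups overlapping transcripts into a gene locus, so neighbouring annotated genes whose assembled transcripts overlap or are joined can come out as a single row. The value of such a row is the level of the whole group and cannot be given to any gene in it. Fewer cells of a type and less RNA per cell cannot be told apart in such bulk samples.

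Gene IDs of sorghum carry the chromosome before the letter G and a number after it that climbs along the chromosome. Along the 10 chromosomes, the number increased in 99.95% of 26678 neighbouring pairs of single-ID rows that were alone at their locus. No name is paired with an ID in the files, and 0 of the 2706 IDs in merged rows were found in the RefSeq gene table of the assembly Sorghum_bicolor_NCBIv3, either as written or rewritten as SORBI_3 locus tags. That table could not be matched, since 194 of its 32945 genes carry a locus tag and 0 of those tags have either form, so the 0 does not show that it lacks these genes. No gene is therefore named or described by function, and the tissue could not be checked against its marker genes. No genome sequence was used here, so no bases are shown. Rows are called by the chromosome, start and end of their locus in the deposited table.

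All 1262 merged rows had a row ID beginning with MSTRG, the prefix that the assembler StringTie gives by default. StringTie is not among the tools named by the submitters. In all, 23813 rows carried such an ID, and 20778 of them held a single gene ID. These 20778 rows are the closest class for comparison. Of the 10645 single-ID rows that had the gene ID as row ID, 53 (0.498%) reached 1 FPKM in any stage, so the class of all rows holds many rows under 1 FPKM. The merged rows took up 2706 gene IDs, 7.93% of the 34129 in the table, and 0 of those IDs stood in any other row as well.

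Pairs made up most of the class. A merged row held 2 IDs in 1119 cases (88.7%), 3 IDs in 118 cases and 4 or more in 25 cases. The row with the most IDs held 8 and lay on chromosome 5 from 70988835 to 71104989. A row with 7 IDs lay on chromosome 8 from 61182308 to 61243283. The 2 rows with 6 IDs lay on chromosomes 5 and 8.

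The IDs were mostly neighbours. In 1060 of the 1262 rows (84.0%), no other gene ID of the table lay between the IDs of the row, and these rows are called consecutive. The share was lower in rows with more IDs, being 86.0% of rows with 2 IDs, 69.5% of those with 3 IDs and 64.0% of the 25 rows with 4 or more. A row with more IDs has more gaps in which another ID can lie, and the shares were not adjusted for this. Of the 34118 pairs of neighbouring IDs in the table, 1234 (3.62%) shared a row. The largest step between ID numbers in a row was the usual 100 in 735 rows and 50 in 150 rows.

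**Figure D1:**
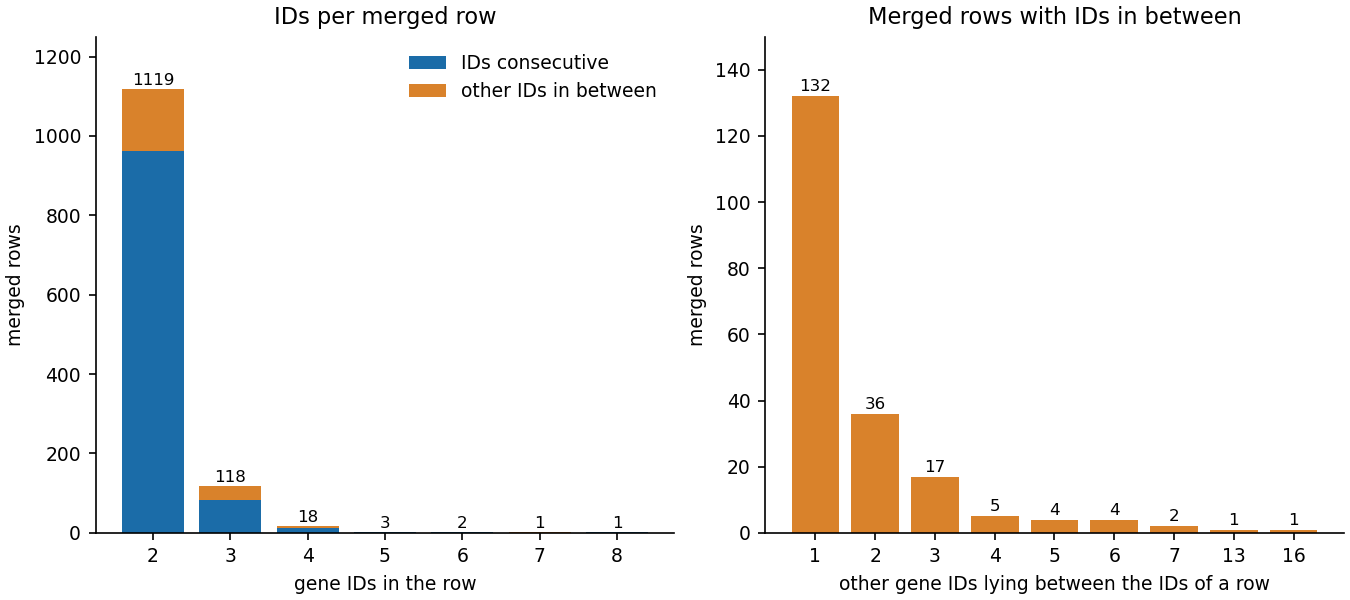
Number of merged rows by gene IDs per row (left; blue, IDs consecutive; orange, other IDs in between) and, for the 202 rows that were not consecutive, by how many other gene IDs lay between their IDs (right). Rows with 2 IDs numbered 1119 and most were consecutive, and 132 of the 202 other rows passed over a single ID.

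The 202 rows that were not consecutive passed over 362 IDs. Of these IDs, 341 (94.2%) stood in another row with the same locus coordinates. The coordinates are those of the whole locus, so this share does not tell how far apart the joined genes lie. The 341 IDs belonged to a single-ID row in 312 cases and to another merged row in 29 cases. In 188 of the 341 cases the row that held it stayed under 1 FPKM in every stage. A row on an unplaced scaffold paired 2 scaffold IDs with 16 IDs between them, and numbers of scaffold IDs need not follow position. Every other row that was not consecutive passed over 13 IDs or fewer, and all but 2 of the 202 shared their locus with another row.

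The most IDs passed over by a row on a chromosome, 13, were at a locus on chromosome 1 from 69795047 to 69897143. A merged row there held the first and the last of 15 IDs, Sobic.001G416600 and Sobic.001G418000, and the 13 between them were spread over 9 single-ID rows and 2 merged rows. The outer row had 55.6 FPKM at booting, 146 FPKM at milky and 86.9 FPKM at maturity, and it rose in the first step (a log2 difference of 1.37). The merged pairs inside it stayed within 1 on the log2 scale in every comparison, with 8.01, 5.24 and 4.94 FPKM for Sobic.001G416800 with Sobic.001G416900 and 8.98, 12.5 and 13.0 FPKM for Sobic.001G417500 with Sobic.001G417600 at the same stages. The enclosing row was the highest of the 3 merged rows in each stage. Of the single-ID rows inside it, Sobic.001G417800 was higher in each stage, at 149, 151 and 136 FPKM.

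In all, 394 merged rows (31.2%) shared their locus coordinates with another row, against 20.7% of single-ID rows with an MSTRG row ID. Because such rows carry the same coordinates, start and end give the span of the locus and not the extent of the row. A single other row was present at 258 of the 394, and the fullest locus, on chromosome 6, held 30 rows beside the merged one. The 1262 rows lay at 1242 loci, of which 18 held 2 merged rows and 1 held 3.

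At those 19 loci the IDs of the merged rows were ordered in different ways. They stood side by side at 6 loci, one row enclosed another at 8 loci, and at 5 loci they were crossed, each row passing over an ID of the other. The mean FPKM of the highest merged row was a median of 12.2 times that of the lowest where rows were nested, with a range of 1.70 to 184. Where rows were crossed the median ratio was 2.74 (1.65 to 41.6), and where they stood side by side it was 2.38 (1.07 to 8.36). The ratios of 184 and 41.6 were each to a row under 1 FPKM in every stage, with means of 0.0908 and 0.164 FPKM. With so few loci of each kind, the medians were not compared by a test.

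**Figure D2:**
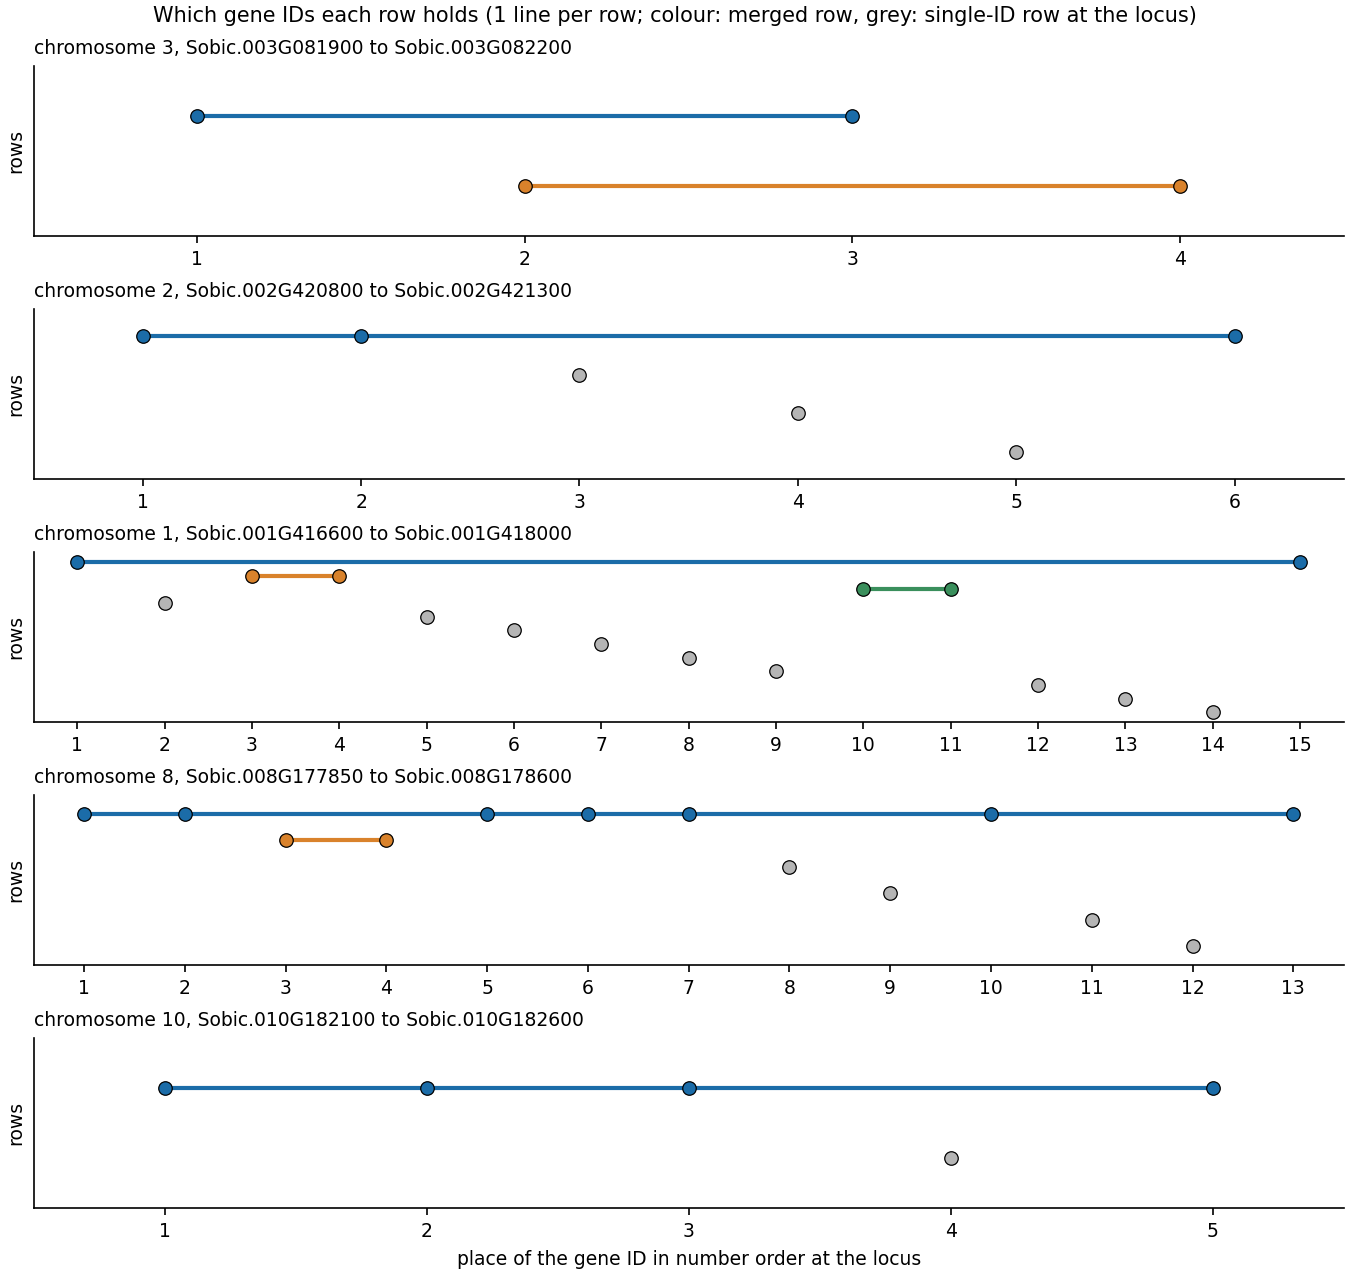
Place of each gene ID in number order (x axis) at 5 loci with merged rows that are not consecutive. Each row that holds a gene ID has its own height (coloured for merged rows, grey for single-ID rows), and rows with no ID are not drawn. On chromosome 3 the IDs of 2 merged rows alternate, whereas on chromosome 1 a row holding the first and last of 15 IDs encloses 2 merged pairs and 9 single-ID rows.

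Where a merged row shared its locus, it was usually the higher row. Its mean FPKM was above that of the partner in 466 of 580 pairs with a single-ID row (80.3%) and in 67 of 79 pairs with a row of no ID (84.8%). The median of the mean FPKM was 16.5 for the merged row and 0.755 for the partner in pairs with a single-ID row. With rows of no ID, it was 18.5 for the merged row and 1.23 for the partner. A locus can enter several of these pairs. An exception lay on chromosome 2 from 63339837 to 63351650, where the row with 3 IDs had 1663 FPKM at booting, 903 FPKM at milky and 951 FPKM at maturity. A row with no ID at that locus stood higher in each stage, with 2269, 1043 and 1146 FPKM. It fell in the first step (−1.12), in which the merged row differed by −0.88.

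Changes of rows at a shared locus were set side by side in the 344 pairs of a merged row and a partner that were both expressed, a change being a difference of at least 1 in log2(FPKM + 1). The partner was a single-ID row in 278 of these pairs, a row with no ID in 47 and another merged row in 19. Between maturity and booting the merged row changed in 34 pairs and the partner in 57 of the 344. Within those 34 pairs, the partner changed in the same direction in 14 and in the opposite direction in 5. Between the milky stage and booting the merged row changed in 33 pairs and the partner in 34, both in the same direction in 8 and in opposite directions in 1. Between maturity and the milky stage the merged row changed in 15 pairs and the partner in 31, both in the same direction in 4 and in opposite directions in 0. Those 4 were 2 pairs with a row of no ID and 2 pairs of merged rows, with 0 among the single-ID partners. With single-ID partners, both changed in the same direction in 9 pairs between maturity and booting and in 4 between the milky stage and booting. Over all 18505 expressed rows, 14.3% changed between maturity and booting. The shares were 10.7% between the milky stage and booting and 9.25% between maturity and the milky stage. Pairs of a locus are not independent, and no test was made. Reads that fit more than 1 row of a locus can be divided among them in ways the table does not show.

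Loci of merged rows that were alone at their coordinates were long. Their median was 7924.5 bp over 868 loci, against 3649 bp over 16485 single-ID MSTRG loci, and their middle 50% ran from 5566.5 to 11639.5 bp. The median was 7619 bp with 2 IDs, 11666.5 bp with 3 IDs and 22085 bp with 4 or more. The shortest of these 868 loci was 1185 bp and the longest 107515 bp. With loci shared by several rows included, the longest was 247508 bp.

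IDs that do not end in 00, numbers placed between those of the usual step of 100, were counted in both classes. They made up 508 of the 2706 merged IDs (18.8%), against 14.9% of the IDs in all single-ID rows and 9.47% of those in single-ID MSTRG rows. At least 1 such ID was present in 412 merged rows (32.6%). The expressed rows among them had a median of the mean FPKM of 11.5, against 20.6 for rows with only IDs ending in 00. Between maturity and booting, 10.3% of these expressed rows changed, against 12.4% of rows with only IDs ending in 00, a difference that was not tested.

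Merged rows occurred on all 10 chromosomes at similar shares. The IDs in merged rows made up 6.74% of the IDs on chromosome 7, the lowest share, and 8.53% on chromosome 6, the highest. On chromosome 5 the share was 8.29% of all IDs and 15.7% of the IDs in MSTRG rows, against 9.91% to 13.4% of the IDs in MSTRG rows on the other chromosomes. On the chromosomes, 1241 of 31221 loci held a merged row, and in 61 neighbouring pairs of loci both did. Whether 61 differs from the number that a random spread of such loci would give was not tested.

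Most merged rows were expressed. A row was counted as expressed when it reached 1 FPKM in at least 1 stage, and 1183 of 1262 (93.7%) did, against 78.4% of single-ID MSTRG rows and 53.7% of all rows. Of the 79 others, 6 were listed at 0 in every stage and 53 were above 0 in every stage. At 1 FPKM or more there were 1136 merged rows at booting, 1140 at milky and 1157 at maturity, and 1106 reached it in all 3 stages. By contrast, 9 reached it at booting alone, 5 at the milky stage alone and 25 at maturity alone.

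The level of the expressed rows also lay above that of single-ID rows. Their median was 16.9 FPKM at booting, 16.7 FPKM at milky and 18.1 FPKM at maturity. In single-ID MSTRG rows the medians at these stages were 11.2, 11.4 and 12.0 FPKM. The middle 50% of the mean over the stages ran from 6.97 to 43.7 FPKM in merged rows and from 3.74 to 31.1 FPKM in single-ID MSTRG rows, so the classes overlapped over most of their range. Merged rows were 3.66% of the rows, a base that includes 15953 rows under 1 FPKM in every stage. They were 1183 of the 18505 expressed rows and held 7.93% of the gene IDs. Of all FPKM added together, they made up 8.90% at booting, 10.1% at milky and 9.82% at maturity. They were 100 of the 1000 rows with the highest mean and 1 of the highest 10. A merged row takes in several genes, and the part of that in these differences was not tested.

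Median levels climbed with the number of IDs, with much overlap. The median of the mean FPKM was 17.1 in 1045 expressed rows with 2 IDs, 19.0 in 113 rows with 3 IDs and 44.5 in 25 rows with 4 or more. It was 17.4 in consecutive rows and 21.0 in rows that were not. The rows with the most IDs were not the highest. The row with 8 IDs had 15.5 FPKM at booting, 24.6 FPKM at milky and 18.4 FPKM at maturity, and the row with 7 IDs had 63.6, 65.0 and 46.1 FPKM. A row with 6 IDs on chromosome 5 from 5348919 to 5412557 had 4.24, 10.8 and 7.91 FPKM, and of these 3 rows only this one reached a log2 difference of 1, from booting to the milky stage (1.17).

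**Figure D3:**
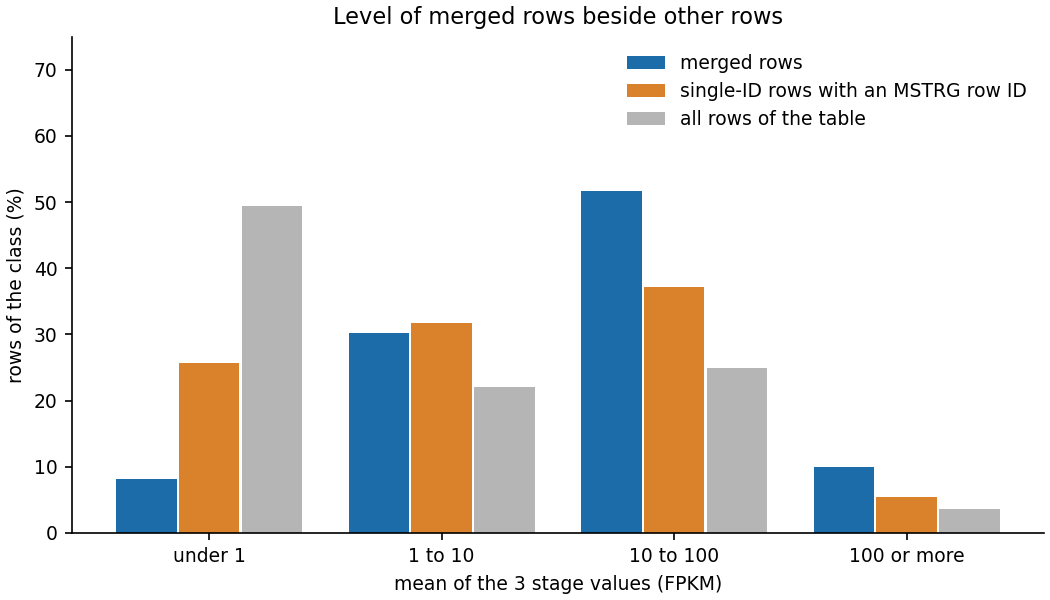
Share of rows (percent of each class, y axis) in 4 classes of the mean of the 3 stage values (FPKM, x axis), for merged rows (blue), single-ID rows with an MSTRG row ID (orange) and all rows (grey). Merged rows are fewest under 1 FPKM (8.16%, against 25.7% of single-ID MSTRG rows) and most frequent at 10 to 100 FPKM (51.7%).

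The highest merged row lay on chromosome 3 from 70717673 to 70722503 and held 2 consecutive IDs. It had 6826.5 FPKM at booting, 11705 FPKM at milky and 6558 FPKM at maturity, and its differences stayed under 1 on the log2 scale. The next, on chromosome 9 from 52044734 to 52055043, had 3403.5 FPKM at booting and was lower later, with 1629 FPKM at milky and 1431 at maturity. That row fell in both comparisons with booting (log2 differences of −1.06 and −1.25).

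Rows with 3 IDs filled the next 3 places by mean, the last of them being the chromosome 2 row that stood below its partner with no ID. On chromosome 2 from 76832053 to 76861505, a row passing over 3 IDs had 1417 FPKM at booting, 2282 FPKM at milky and 1030 FPKM at maturity, and fell in the second step (−1.15). Its 3 inner IDs had rows of their own, the highest of which, Sobic.002G421200, was flat at 169, 176 and 179 FPKM. On chromosome 4 from 4030275 to 4045944, a consecutive row had 1705, 737 and 1081 FPKM and fell in the first step (−1.21). A row with no ID at that locus stood at 91.6, 43.7 and 59.4 FPKM, with a fall of 1.05 on the log2 scale in the same step. On chromosome 3 from 9713280 to 9732650, another row of 3 IDs, which passed over 1 ID, had 1521, 993 and 550 FPKM, and fell between maturity and booting (−1.47). The ID passed over, in a row of its own, had 5.57, 7.73 and 6.43 FPKM.

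Of 124 rows that averaged 100 FPKM or more over the stages and were above 0 in at least 2, 61 (49.2%) stayed within 0.5 on the log2 scale over all stages and 26 (21.0%) ranged over 1 or more. Of 1125 single-ID MSTRG rows at that level, 42.3% stayed within 0.5 and 20.4% ranged over 1 or more, and the difference was not tested. The steadiest lay on chromosome 2 from 64271392 to 64281982 and had 124 FPKM at booting, 127 FPKM at milky and 125 FPKM at maturity. A row on chromosome 4 from 61449777 to 61463255 had 126, 130 and 126 FPKM, and one on chromosome 10 from 51186381 to 51197152 had 399, 395 and 377 FPKM. All 5 of the steadiest rows held a consecutive pair of IDs, as did 962 of all 1262 merged rows (76.2%).

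Rose and fell are said of a row only where log2(FPKM + 1) moved by 1 or more between the stages compared. Between the milky stage and booting, 34 of the 1183 expressed merged rows rose and 70 fell (8.79% in all). The background over all 18505 expressed rows of the table was 10.7%, with 4.83% rising and 5.9% falling, against 2.87% and 5.92% in merged rows. The median log2 difference was −0.02 in merged rows and −0.01 over all rows. The share of rises was below that of the table and the share of falls lay next to it.

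Between maturity and booting, 74 merged rows rose and 65 fell (11.7%), beside a background of 14.3%, of which 8.1% rose and 6.19% fell. The excess of rises turned to 69 rising and 73 falling when each stage was scaled by its median ratio. Over all expressed rows so scaled, 1358 rose and 1265 fell. In merged rows alone at their locus, without that scaling, 48 rose and 48 fell, and no such count was made over all rows. The median log2 difference of the unscaled values was 0.01 in merged rows, against 0.04 over all rows. By at least 2 on the log2 scale, 21 of the 1183 expressed merged rows rose and 16 fell, beside 343 and 224 of all 18505 expressed rows. Between maturity and the milky stage, 60 rose and 36 fell (8.11%), beside a background of 9.25%, of which 5.62% rose and 3.63% fell, and the median of 0.06 was equal to that over all rows. In each comparison the share of merged rows that changed in either direction lay below the background. No test was made of merged against other rows.

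The share that changed also varied with level. At a mean of 1 to 10 FPKM, 16.8% of 382 merged rows and 17.3% of 6585 single-ID MSTRG rows changed between maturity and booting. At 10 to 100 FPKM the shares were 8.59% of 652 merged rows and 10.6% of 7738 single-ID rows. At 100 FPKM or more they were 13.6% of 125 merged rows and 14.6% of 1125 single-ID rows. In that highest class, 7 merged rows rose and 6 fell between the milky stage and booting. Of the single-ID rows there, 40 rose and 104 fell. Between maturity and the milky stage, 15 of those 125 merged rows (12%) changed, against 5.42% of the single-ID rows, a difference that was not tested.

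The share that changed was also set out by the structure of the row. Between maturity and booting, 12.0% of expressed rows with 2 IDs and 10.1% of those with 3 or more changed. The shares were 13.7% for rows that were not consecutive and 11.4% for consecutive rows. They were 11.7% for rows that shared a locus and 11.8% for rows alone at theirs. None of these differences was tested.

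**Figure D4:**
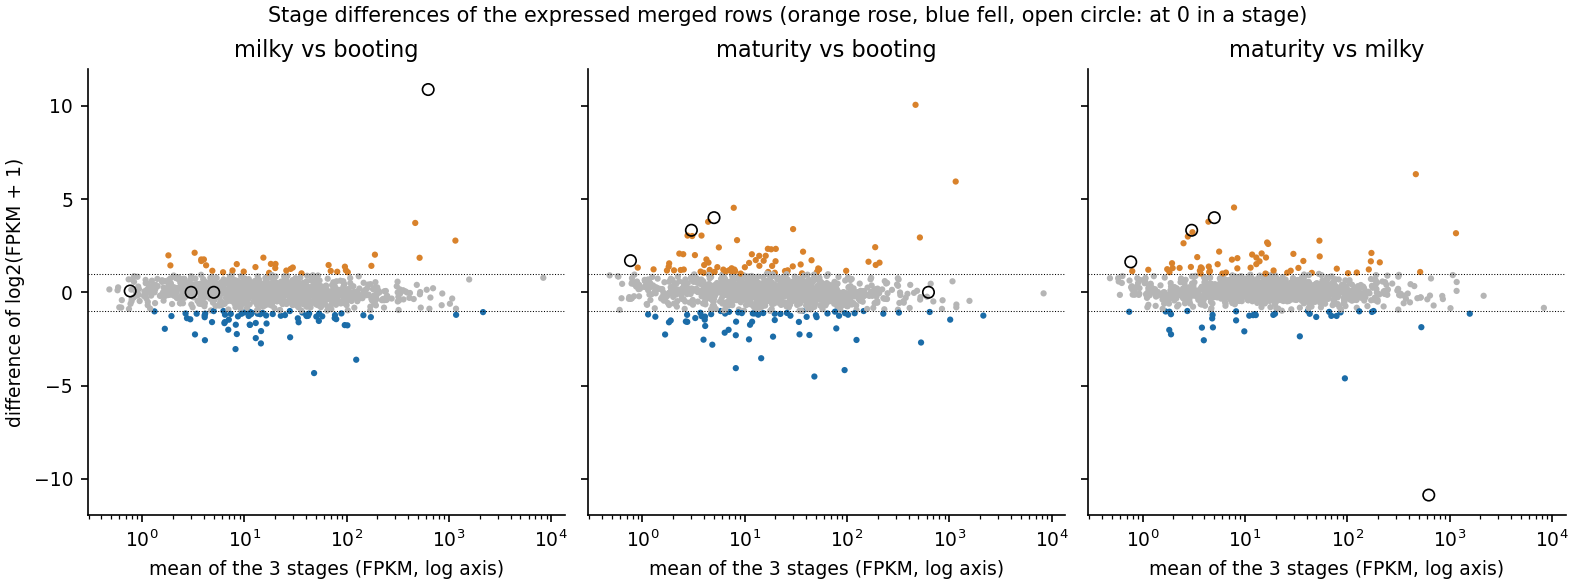
Difference of log2(FPKM + 1) (y axis) against the mean of the 3 stage values (FPKM, log x axis) for the 1183 expressed merged rows in each comparison, with orange for rows that rose, blue for rows that fell, grey for the rest and open circles for 4 rows listed at 0 in a stage. Most points lie between the dotted lines at −1 and 1, and the 2 rows of the chromosome 3 locus stand at the top right of the comparison of maturity with booting, at 10.06 and 5.94.

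Rises and falls are ranked here among rows above 0 in both stages compared, and rows listed at 0 are given at the end. The largest rises between maturity and booting were those of a crossed pair. At chromosome 3 from 7023232 to 7058676, one row held Sobic.003G082000 and Sobic.003G082200, and the other held Sobic.003G081900 and Sobic.003G082100, so the 4 IDs alternated between the rows. The first had 0.304 FPKM at booting, 16.2 FPKM at milky and 1388 FPKM at maturity. The second had 49.1, 341 and 3077 FPKM at these stages. Both rose in each step, and the second was higher in every stage. No other row lay at the locus. The sources used here do not say how fragments were divided between the rows.

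Several of the other large rises came late. A row on chromosome 8 from 34714496 to 34717576 had 0.0520 FPKM at booting, 0.0407 FPKM at milky and 23.3 FPKM at maturity, a log2 difference of 4.55 in the second step. Another on chromosome 8, from 7312541 to 7346007, had 0.0257, 0.0223 and 13.1 FPKM (3.79 in that step). The number of fragments behind values this low is unknown. On chromosome 5 from 69226352 to 69233717, a row rose in each step, with 5.59, 15.6 and 68.1 FPKM.

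Some rises were early. On chromosome 6 from 43649937 to 43654900, a row had 53.7 FPKM at booting, 221 FPKM at milky and 292 FPKM at maturity, a log2 difference of 2.02 in the first step and 0.40 in the second. A row on chromosome 9 from 58837680 to 58872864 had 0.369, 4.96 and 4.46 FPKM, and one on chromosome 3 from 64635283 to 64643786 had 0.117, 3.41 and 1.89 FPKM. All 3 were higher at both later stages than at booting.

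In the same ranking, the 4 largest falls from booting to the milky stage were in rows alone at their locus. The row of Sobic.010G025000 and Sobic.010G025100 on chromosome 10, from 2050829 to 2064433, had 133 FPKM at booting, 5.67 FPKM at milky and 4.87 FPKM at maturity (−4.33 in the first step and −0.18 in the second). On chromosome 1 from 13554351 to 13577021, a row had 298 FPKM at booting, 23.4 FPKM at milky and 49.9 FPKM at maturity. It fell in the first step (−3.62) and rose in the second (1.06). Rows on chromosome 5 from 71337577 to 71343236 and on chromosome 4 from 58230040 to 58236011 were lower at each later stage, with 22.3, 1.82 and 0.391 FPKM in the chromosome 5 row and 36.6, 4.62 and 2.24 FPKM in the chromosome 4 row. The fifth, on chromosome 1 from 7440077 to 7444913, had 9.54, 0.775 and 2.01 FPKM. The single-ID row at its locus was lowest at booting, at 0.369 FPKM, where the merged row was highest, and it rose between maturity and booting (1.03).

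Among rows above 0 in both stages, the 5 largest falls from the milky stage to maturity were as follows. The row on chromosome 6 from 51039816 to 51056309 had 118 FPKM at booting, 161 FPKM at milky and 5.60 FPKM at maturity, the largest fall of the second step in that ranking (−4.62). A row on chromosome 9 from 55906296 to 55913402 had 45.4, 49.0 and 8.71 FPKM (−2.36), and one on chromosome 2 from 72580073 to 72583577 had 5.78, 5.93 and 0.164 FPKM (−2.57). On chromosome 4 from 20672482 to 20707386, a row had 1.87, 3.80 and 0.00671 FPKM (−2.25). The row of 3 IDs on chromosome 4 from 63239718 to 63247906 rose in the first step (1.11) and fell in the second (−2.09), with 7.88, 18.2 and 3.49 FPKM.

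**Figure D5:**
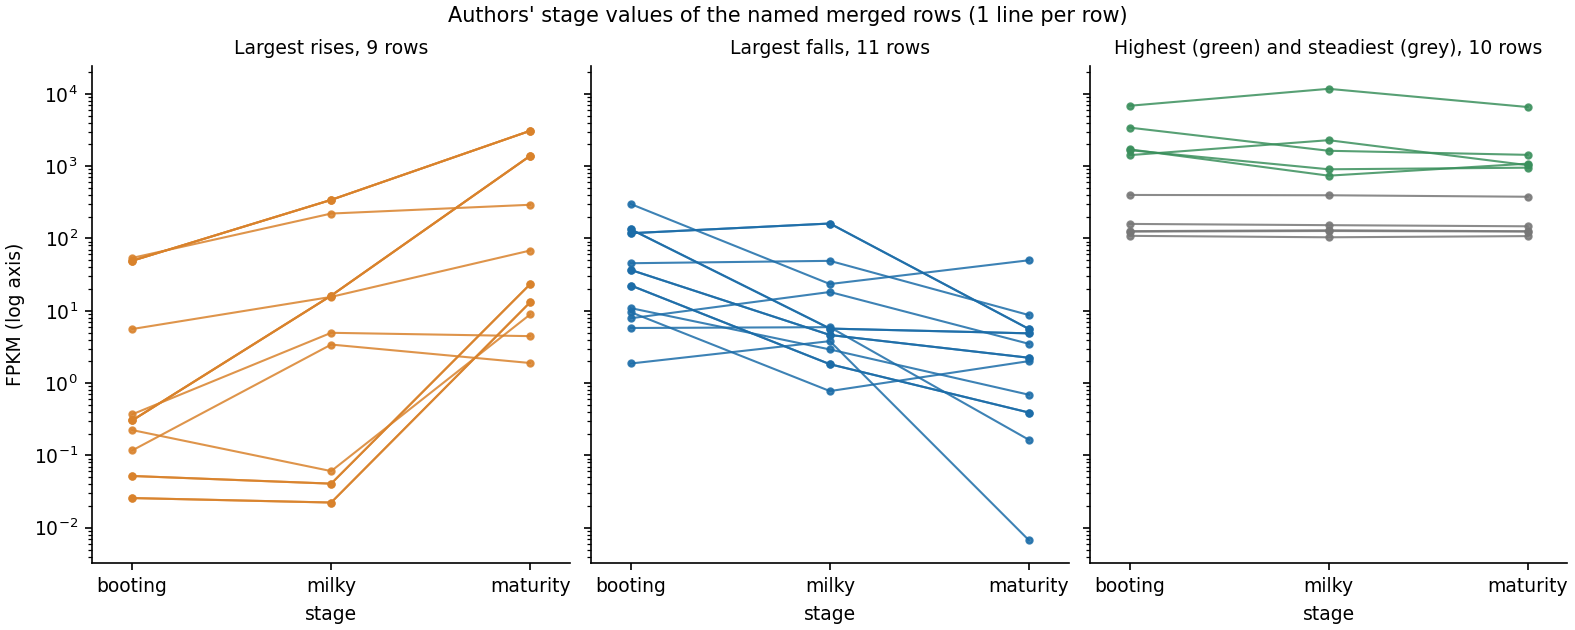
Authors' value at each stage (FPKM, log y axis) for the merged rows with the largest rises (left, 9 rows), the largest falls (middle, 11 rows) and the highest mean or the smallest range (right, 10 rows), with 1 line per row. The 2 rows of chromosome 3 end at 1388 and 3077 FPKM at maturity, and the grey lines of the steadiest rows are flat between 104 and 399 FPKM.

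Over both steps, 164 of the 1183 expressed merged rows (13.9%) changed in at least 1, against 17.0% of all expressed rows. A change in the first step alone was seen in 68 rows, of which 20 rose and 48 fell. A change in the second step alone was seen in 60 rows, of which 37 rose and 23 fell. Over all expressed rows, 3.15% rose and 4.64% fell in the first step alone, against 1.69% and 4.06% of merged rows. In the second step alone 4.15% rose and 2.16% fell, against 3.13% and 1.94% of merged rows. The other 36 merged rows changed in both steps. Of these, 6 rose each time (0.507%, beside 0.400% of all expressed rows) and 5 fell each time (0.423%, beside 0.189%). A rise and then a fall was seen in 8 (0.676%, beside 1.28%), and a fall and then a rise in 17 (1.44%, beside 1.07%). No comparison reached the threshold in 970 merged rows (82.0%), beside 78.6% of all expressed rows. These differences were not tested.

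The rows that changed in both steps were singled out after their values were seen. Beside the rows given above, those that rose each time included one on chromosome 3 from 3689218 to 3696666, which had 125 FPKM at booting, 455 FPKM at milky and 969 FPKM at maturity. Those that fell each time included one on chromosome 2 from 74256276 to 74269927, with 78.4, 35.1 and 15.2 FPKM. At a locus on chromosome 6 from 4498653 to 4561135, a row had 10.9, 2.92 and 0.690 FPKM and fell in each step. Another merged row, whose IDs enclose those of the first, had 14.5, 7.92 and 2.14 FPKM, with log2 differences of −0.80 and −1.51 in the steps.

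Of the 17 merged rows lowest at the milky stage after a fall and a rise, the highest lay on chromosome 2 from 16844700 to 16884816 and had 166 FPKM at booting, 65.4 FPKM at milky and 285 FPKM at maturity. A row of 3 IDs nearby, from 16897836 to 16982931, also had its lowest value at the milky stage, with 14.8, 3.96 and 30.6 FPKM. A row of 3 IDs on chromosome 3 from 57293467 to 57316959 had 43.2, 14.2 and 103 FPKM. Of the 8 rows that rose and then fell, the highest above 0 in every stage was on chromosome 4 from 60319646 to 60324263, with 105, 283 and 136 FPKM.

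Rows listed at 0 were few among the expressed. Of 30 merged rows at 0 in at least 1 stage, 4 reached 1 FPKM in another. The row of 4 IDs on chromosome 10 from 52122844 to 52228422 had 1879 FPKM at the milky stage and was listed at 0 at booting and at maturity. A row with no ID at that locus had 320 FPKM and the row of the single ID passed over had 0.659 FPKM at the milky stage, and both were also listed at 0 at the other stages. No fold is given for such rows, although they are among the counts of rows that rose or fell. A 0 can be a failed estimate in tables of this kind, and whether it was one here cannot be told apart from absence of transcript.

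The 3 other rows were listed at 0 at booting and highest at maturity. On chromosome 1 from 12040962 to 12042960, a merged pair had 15.0 FPKM at maturity and was listed at 0 in the earlier stages. The next locus along, from 12047340 to 12067646, held a merged row with 0.224, 0.0607 and 8.91 FPKM at the same stages. Of 53 neighbouring pairs of expressed merged loci, 1, made up of these loci, had both members change in the same direction between maturity and booting. A row of 3 IDs on chromosome 4 from 57991393 to 58008728 had 9.03 FPKM at maturity and was listed at 0 in the earlier stages, and a pair on chromosome 4 from 7888705 to 7901836 had 0, 0.0488 and 2.24 FPKM.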

How the data were processed

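Per the file headers, the deposited table holds FPKM values made by the authors, with 1 column for each of 3 stages and none for a single library. Per the labels, a stranded kit for total RNA was used. HISAT2 2.0.5, Bowtie2 2.2.9, cutadapt 1.8.1 and Cuffdiff are named, per the submitters' processing notes. The sources used here do not give their roles, the assembler, the annotation or the genome build, and depth is unknown.

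Merged rows were those with a comma in the gene ID column. Because 6 deposited loci start at 0, starts were taken as counted from 0 and 1 was added. Differences are of log2(FPKM + 1), which understates the change of low rows, among rows that reached 1 FPKM in any stage. Rows differing by at least 1 were called changed. The planned limma fit could not be made with 1 value per stage. Lists by gene description, strand and protein comparisons had no annotation to use and were not run.

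Rows named in the text were, among merged rows, the 5 largest rises and falls in each comparison (among rows above 0 in both stages), then, among rows above 0 in at least 2 stages, the 5 highest, the 5 steadiest with a mean of at least 100 FPKM, the 3 with most IDs and the 3 highest that were not consecutive, and last those at 0 in a stage with at least 100 FPKM in another, with the rows at their loci. Others are said to be chosen after their values were seen, or illustrate a count. The members and lists were chosen with earlier results of these data known. The counting rules were tested on simulated data and made-up ID orders. The simulation used rows at 5 FPKM or more, an assumed depth, counting noise alone and planted changes larger than the threshold. It checks that the rule was coded as stated, and not how often the rule errs in these data. The alternatives were other pseudocounts, filters, scalings and thresholds, and counting 1 row per locus. The work used Python 3.11.15, numpy 2.4.6, pandas 2.3.3 and matplotlib 3.10.9.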

Additional observations from a re-analysis of the deposited data

How the results depend on the processing

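The counts of changed merged rows were 104 between milky and booting, 139 between maturity and booting, and 96 between maturity and milky. With a pseudocount of 5 these counts became 58, 74 and 45. Asking for a log2 difference of 2 or more left 16, 37 and 24. Over all 18505 expressed rows, 138 rose and 170 fell by that much between milky and booting. The counts were 343 and 224 between maturity and booting, and 215 and 126 between maturity and milky. Keeping only rows that averaged 5 FPKM or more gave 62 of 952 between maturity and milky (6.51%, against 8.11% of 1183). In the other comparisons that filter stayed within 1.5 times the main count. Counts over all rows were not made with a pseudocount of 5 or with that filter. The moves in the merged counts follow from the weight of low values, the rows that enter or the size asked for. Each count stayed within 1.5 times under quantile normalization, a pseudocount of 0.1, scaling by median ratios and 1 row per locus. So did keeping only rows alone at their locus, an alternative chosen after seeing the data. Removing the filter cannot change a count, since a difference of 1 needs at least 1 FPKM. The small excess of rises between maturity and booting (74 rose, 65 fell) turned after scaling by median ratios, with 69 rising and 73 falling. Over all expressed rows so scaled, rises stayed the more frequent, with 1358 rising and 1265 falling. The count of consecutive rows, 1060, was 1047 of 1242 with 1 row per locus. A rule by steps of at most 100 between ID numbers, used in place of the consecutive rule, gave 1019 rows. Of these, 995 were consecutive and 24 were not. Of the 1262 rows, 1012 reached 5 FPKM in a stage. The order of genes in the RefSeq table could not be used, since it carries too few locus tags to match the IDs. All 30 log2 differences of the rows with the largest rises and falls kept their direction and stayed at 1 or more with a pseudocount of 0.1 and after scaling by median ratios. The smaller pseudocount can only enlarge them, so it is no check. The scaling factors of the stages lay between 0.983 and 1.04. These are too near 1 to undo differences of this size, so that scaling is no check either.

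No paired analysis was possible because the table holds 1 value per stage and none per library. The settings without booting replicate 1 or 2 were therefore not run. The depth behind each value is unknown, so how far low values can be trusted is unknown too.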
